A study of Mus musculus with 20 samples.

Results

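The clustered histone genes are the genes whose symbol starts with Hist1h, Hist2h, Hist3h or Hist4h, and they were followed in poly-A RNA of LSK and MEP cells of mouse bone marrow. Each of both cell types had a table of 24315 genes in 10 libraries, and 68 symbols of the 4 histone clusters were listed in it. A gene was kept as a member when its value was above 0 in at least 3 of the 10 libraries of the cell type. This rule left 52 members in LSK and 52 in MEP, of which 50 were shared. Hist1h2ag and Hist2h2ab were members in LSK only, and Hist1h2af and Hist1h3h in MEP only. The other 14 symbols passed in neither cell type, and 9 of them were listed at 0 in all 20 libraries. By histone type, LSK had 5 members of H1, 12 of H2a, 16 of H2b, 8 of H3 and 11 of H4. In MEP the numbers were 5, 11, 16, 9 and 11. The values are FPKM, which divide a gene's fragments by its length and by the fragments of the library, so that levels of genes of unequal length can be set side by side.

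Clustered histone genes encode the H2A, H2B, H3 and H4 proteins that form the nucleosome core and the linker histone H1 that binds the DNA between cores. Most of them are expressed in S phase, and their mRNA ends in a conserved stem-loop, bound by SLBP and cut by the U7 snRNP, instead of a poly-A tail. Some of these genes also make an mRNA with a tail, from a poly-A signal downstream of the stem-loop, for example in differentiated cells. A library made from poly-A RNA is meant to take up the tailed form. RNAs that have no tail were nevertheless measured in each of the 20 libraries, at 137.6 to 2692 FPKM in sum, so the member levels below cannot be divided into tailed and tailless mRNA.

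The mice were C57BL/6 and of 4 genotypes, and LSK and MEP cells were sorted from the bone marrow of the same animals. WT had 3 libraries per cell type, Dnmt3a-/- 3, Bcor-/- 2 and Bcor-/-Dnmt3a-/- 2, and 1 Bcor-/- label (replicate 1) names 2 mice. Conditional alleles of Bcor and Dnmt3a were deleted by Mx1-Cre, an interferon-inducible recombinase that pIpC switches on, and WT mice had neither gene targeted. Mx1-Cre is also active outside blood cells, and cells that escaped deletion are summed here with deleted ones. The descriptions of every mutant library carry the word Cre and those of WT do not, so Cre itself cannot be told apart from the deletions. The study's text calls the double knockout mice of this comparison leukemic, while the labels give neither age nor disease stage. The labels name separate mice, so the spread between libraries is that between animals.

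The libraries were compared in depth through the steps that single fragments leave in low values, and lay between 0.789 and 1.32 times WT replicate 1 in LSK and in MEP between WT replicate 1, the lowest, and 1.61 times it. Bcor RNA was between 22.4 and 23.2 FPKM in Bcor-/- LSK, against 29.5 to 32.4 in WT LSK and 24.0 to 37.4 in Bcor-/-Dnmt3a-/- LSK. Dnmt3a RNA was between 11.3 and 16.9 FPKM in Dnmt3a-/- LSK and between 10.4 and 10.9 in the double knockout, against 16.1 to 19.8 in WT. In MEP, Bcor RNA was between 19.5 and 22.4 FPKM in Bcor-/- against 21.3 to 26.9 in WT, and Dnmt3a RNA between 2.56 and 5.40 in Dnmt3a-/- against 5.49 to 6.64. In double knockout MEP Bcor was between 19.6 and 26.7 FPKM, with overlap with WT. Dnmt3a was at 3.44 in 1 library, below every WT library, and at 6.85 in the other, above every WT library. A value over the whole gene includes exons outside the deleted part, so these levels do not measure the deletion. The double knockout libraries stood apart, with a lowest Pearson's r across genes between the 2 replicates of 0.849 for LSK and 0.815 for MEP, where no other genotype was under 0.971. Of 8 LSK stem and progenitor markers 7 were called lower in double knockout LSK, Kit, Flt3 and Cd34 among them, and all 7 measured markers of maturing erythroid cells were called higher. The summed FPKM of these erythroid markers was 6076 and 23665 in the double knockout LSK libraries, against 36.3 to 121 in WT, and 3964 and 94995 in the double knockout MEP libraries, against 397 to 923. B cell markers summed to 1457 and 1254 FPKM in double knockout LSK against 34.5 to 64.8 in WT, and granulocyte markers to 6759 and 15225 in double knockout MEP against 309.9 to 736.7. In such sums over sorted cells, fewer cells of a type and less RNA per cell cannot be told apart.

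The stem-loop, where the usual tailless mRNA ends, lies inside the annotated transcript of most members. Positions are those of GENCODE transcripts on GRCm38, matched by symbol, whereas the submitters' processing notes name mm9. Of the members, 37 had a match to the histone stem-loop, searched on the sense strand after the stop codon. The same search found the stem-loop in the first 100 bases after the stop in 30 of 40208 protein-coding transcripts, 0.0746%, and in 27 of the 33 clustered histone transcripts with at least 100 such bases. The 9 H4 members with a match all began it with GGCCC, and the 28 members of the other types with GGCTC. Below are the elements of 7 members on which the results turn, from 5 bases before to 5 bases after the stem-loop, which is in capitals. The sequence is that of the transcript and of GENCODE's annotation, and it is shown for some of the members with high levels or with called changes.
Hist1h1c, chr13:23739507-23739532, plus strand: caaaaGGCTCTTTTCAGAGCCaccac
Hist1h2bg, chr13:23571838-23571863, plus strand: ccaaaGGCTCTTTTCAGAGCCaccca
Hist3h2a, chr11:58955167-58955192, plus strand: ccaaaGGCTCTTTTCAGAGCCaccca
Hist3h2ba, chr11:58949344-58949369, plus strand: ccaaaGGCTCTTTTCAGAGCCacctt
Hist1h4i, chr13:22040961-22040986, minus strand: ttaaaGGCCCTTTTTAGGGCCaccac
Hist2h4, chr3:96262934-96262959, minus strand: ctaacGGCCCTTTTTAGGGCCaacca
Hist4h4, chr6:136803993-136804018, minus strand: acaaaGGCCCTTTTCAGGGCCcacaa

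In all 7 the annotated transcript goes on past the stem-loop. It goes on for 840 bases in Hist1h1c, 155 in Hist1h2bg, 1643 in Hist3h2a, 169 in Hist3h2ba, 330 in Hist1h4i, 1257 in Hist2h4 and 2445 in Hist4h4. The 7 were picked, and other called members end sooner, Hist1h2bb 23 bases past its stem-loop and Hist1h3a 37. Of the 7, Hist1h1c, Hist3h2a, Hist3h2ba, Hist2h4 and Hist4h4 hold the poly-A signal AATAAA in the last 50 bases. Of 58797 protein-coding transcripts of that annotation 40.5% hold it there, and of the 52 members of each cell type 10 do. The annotated transcript of Hist1h2bc, a spliced one on chromosome 13 between 23684199 and 23692908, and that of Hist2h2be, on chromosome 3 between 96221119 and 96223738, hold no match to the stem-loop at all.

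A few members carried most of the signal. Hist1h1c, Hist1h2bc, Hist3h2a, Hist1h4i, Hist1h2bg, Hist2h2be and Hist3h2ba were the 7 highest members in both cell types, and together they made up 71.6% of the summed member FPKM in LSK and 70.4% in MEP. Only 5 members had a mean above 10 FPKM in each cell type. At the other end, 21 members of LSK and 24 of MEP had a mean under 1 FPKM and made up 4.51% and 6.06% of the sum. Of the 52 members, 20 were above 0 in every library in LSK and 18 in MEP. Across the 50 shared members, Spearman's rho of the mean FPKM between LSK and MEP was 0.94, a description across genes that share length, sequence and libraries between both tables. Levels were not tested between the cell types, because whether the 2 tables were scaled together is not given in the sources used here.

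Hist1h1c, a linker histone gene, was at 24.5, 38.4 and 40.0 FPKM in the WT libraries of LSK, and at 19.1, 18.9 and 30.4 in those of MEP. Hist1h2bc, an H2B gene, was at 49.1, 40.2 and 43.3 FPKM in LSK, and at 27.2, 26.5 and 34.8 in MEP. These were the highest members in both cell types, and their libraries overlapped with each other in MEP. Hist3h2a was the only H2a member past the minimum of 1 FPKM in either cell type and held 82.0% of the H2a sum in LSK and 84.1% in MEP. Its annotation overlaps that of Trim17, a ubiquitin ligase gene, so reads of the 2 cannot be assigned with certainty. Hist1h4i held 61.6% and 66.9% of the H4 sum, Hist1h1c 73.4% and 72.1% of the H1 sum, and Hist1h2bc 43.3% and 43.0% of the H2b sum. The H3 type had no such leader, since its highest members, Hist1h3e in LSK and Hist1h3c in MEP, held 21.4% and 23.5%.

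**Figure D1:**
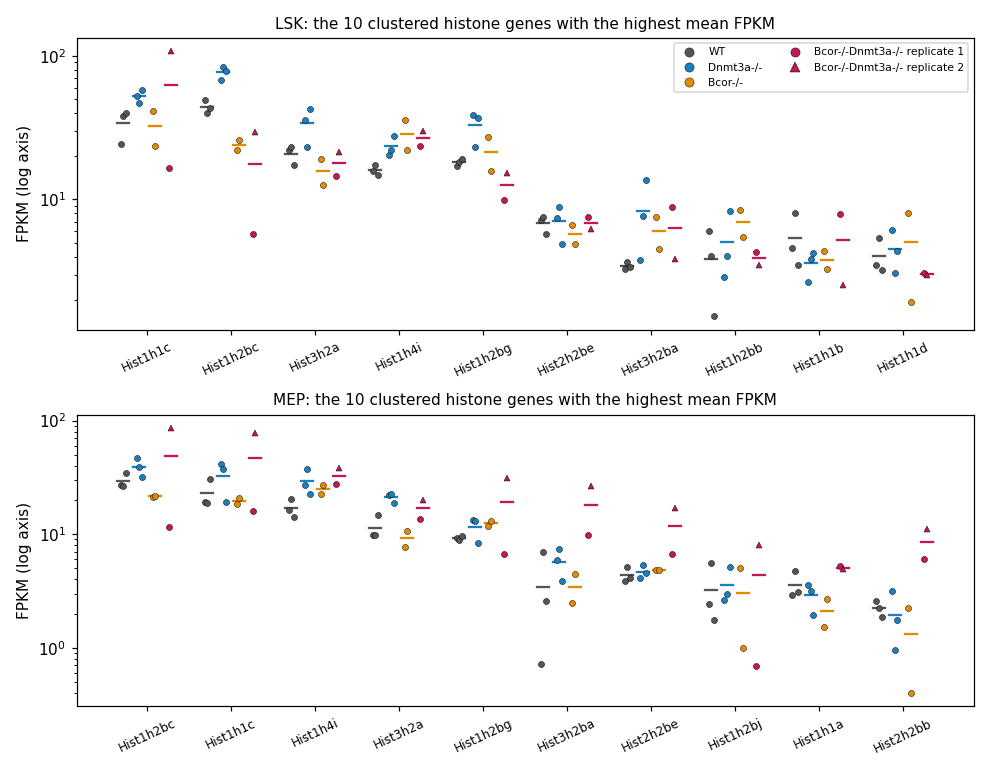
FPKM (log axis) of the 10 clustered histone genes with the highest mean in LSK and in MEP, with 1 point per library, a bar at the mean of each genotype and the second double knockout library as a triangle. Hist1h2bc and Hist1h1c lead in both cell types, and in MEP the triangle is the highest point of 7 of the first 8 genes, Hist3h2a being the other.

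The level of a member went with the annotated end of its transcript, in a description that was not tested. The ends are GENCODE's, and for some of the longer transcripts, such as Hist4h4 and Hist2h4, the deposited value counts a shorter stretch. The median of the mean FPKM in LSK was 1.02 for the 18 members whose longest annotated end lies within 100 bases of the stem-loop, 2.67 for the 19 that go on further, 0.83 for the 10 annotated without bases after the stop codon and 5.34 for the 4 without a match. In MEP the medians were 0.86 in 17 members, 2.09 in 19, 0.60 in 11 and 4.72 in 4. The 4 without a match are of mixed length, with 742 and 2192 annotated bases after the stop codon in Hist1h2bc and Hist2h2be. Hist1h1a and Hist1h4b have only 48 and 77. None of the 7 highest members was among those that end within 100 bases of the stem-loop. The classes overlapped widely, with 0.195 to 45.0 FPKM among the 19 long members of LSK and 0.154 to 4.86 among the 18 short ones. This is a description across genes of one annotation, and the share of a member's 50-base words that another gene also holds, a median of 46.4% over the members, differs between them too. For the 9 symbols listed at 0 in every library the median share was 88.7%, with a range from 23.8% to 100%, and some members with reads, such as Hist2h2bb, also shared all of their words.

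**Figure D2:**
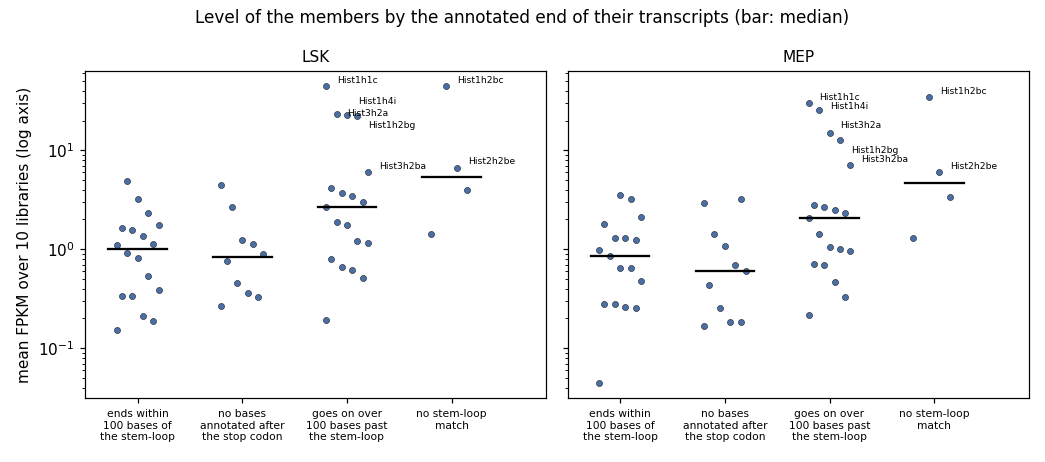
Mean FPKM over 10 libraries (log axis) of each protein-coding member by the end of its annotated transcripts, in LSK and in MEP, with a bar at the median. In LSK the medians are 1.02 and 0.83 in the 2 classes on the left and 2.67 and 5.34 in the 2 on the right, and the 7 named members all lie in the classes on the right. The last class holds both long and short ends.

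Most members below the leaders rested on few fragments. A step that fits whole fragments within a tolerance of 0.1 was found for 30 members in LSK and 38 in MEP, and these members had a median of 14 and 13 fragments over the 10 libraries together. For Hist4h4, an H4 gene outside the large clusters, 1 fragment was worth 0.708 FPKM in WT replicate 1 of LSK, and the gene rested on 18 fragments in all. The value of 1 fragment falls with the length used for the gene. Hist1h3f, with an annotated length of 1261 bases, had 0.259 FPKM per fragment, so the length behind Hist4h4 was shorter than the 2863 bases of its GENCODE transcript. Multiplied by transcript length, the step of Hist4h4 was 6.21 times the median of the 30 members, that of Hist1h2ac 4.52 times and that of Hist2h4 4.44 times. In MEP it was 7.25 times the median there for Hist1h1d, 2.84 times for Hist1h2bh, 2.38 for Hist1h4c and 2.195 for Hist1h3d. For such genes the deposited value therefore counts a shorter stretch than the annotated transcript. The median SD of the tested members between WT libraries was 0.43 on the log2(FPKM + 1) scale in LSK against 0.13 over all tested genes. It was 0.37 against 0.16 in MEP. The genes were not matched by level, and in LSK 7 of 31 tested members averaged 5 FPKM or more, against 9497 of 11952 genes.

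Summed over the members, WT LSK libraries had 199.1, 215.1 and 201.2 FPKM. Dnmt3a-/- LSK had 285.3, 267.0 and 332.8, above every WT library. Listed RNAs without a poly-A tail were also above every WT library there, with 2692, 623.5 and 1431 FPKM in sum against 337.5, 564.9 and 572.2, and their part in the member sums was not tested. Megakaryocyte markers also lay above WT in this genotype, with 129.4 to 148.2 FPKM in sum over 6 genes against 97.4 to 117.0, none of them called. Granulocyte markers summed to 2411 to 3538 FPKM against 3269 to 12898, with overlap, and 2 of 8, Camp and Ngp, were called lower. The part of these markers was not tested either. Bcor-/- LSK had 252.5 and 164.0 and Bcor-/-Dnmt3a-/- LSK 183.2 and 282.3, with 1 library above and 1 below the WT range in each genotype. In MEP, WT had 136.0, 148.4 and 145.6 FPKM, Dnmt3a-/- 208.7, 217.6 and 147.4, and Bcor-/- 133.7 and 142.8. The 2 double knockout MEP libraries had 159.2 and 417.7, both above WT and the second far above every other library. These sums were not tested, since the members were chosen with results known. In both cell types the 42 and 43 members of the Hist1 cluster on chromosome 13 made up 82.1% and 81.5% of the sum, and the 3 members of the Hist3 cluster on chromosome 11 made up 12.7% and 12.2%.

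By type, the H2b sum set Dnmt3a-/- LSK apart, with 136.4, 136.7 and 165.2 FPKM against 96.3, 89.2 and 87.4 in WT, and no overlap. The H4 sum was 25.9, 29.3 and 27.2 FPKM in WT LSK, and it was higher in each of the 7 mutant LSK libraries, from 32.6 in 1 Dnmt3a-/- library to 57.9 in 1 Bcor-/- library. The log2 ratio of the mean H4 sum to WT was 0.78 in the double knockout, 0.76 in Bcor-/- and 0.32 in Dnmt3a-/- LSK, but without Hist1h4i it was -0.0891 in Dnmt3a-/- LSK. In MEP the H4 sums of WT, between 22.4 and 33.1 FPKM, overlapped with those of Dnmt3a-/-, between 30.8 and 52.0, and not with the 34.4 and 36.4 of Bcor-/- or the 44.6 and 63.4 of the double knockout. The H3 sum stayed low, between 4.21 and 13.1 FPKM in MEP, and in LSK it was 7.79 to 12.9 in WT against 4.96 to 8.86 in the 7 mutant libraries.

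**Figure D3:**
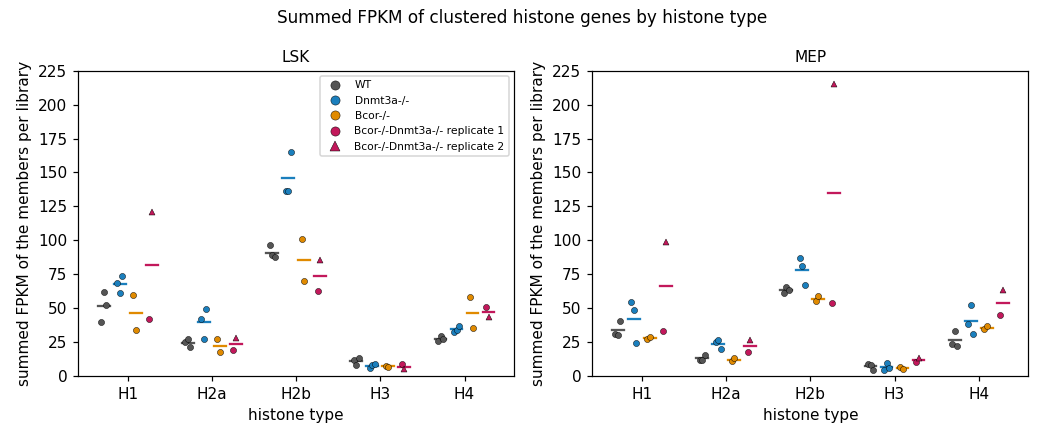
Summed FPKM of the members per library by histone type, in LSK and MEP, with 1 point per library, a bar at the mean of each genotype and the second double knockout library as a triangle. H2b is the largest type in most libraries, although H1 reaches 121.0 against 85.3 for H2b in the second double knockout LSK library. Dnmt3a-/- LSK lies above WT in H2b, and the second double knockout MEP library reaches 215.5.

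Single genes were tested on the log2(FPKM + 1) scale, which understates the change of low genes, with limma over every gene that averaged 1 FPKM or more. Of the members, 31 in LSK and 28 in MEP were tested, 26 of them in both. A gene was called where p was under 0.05 before adjustment and the fold exceeded 1.5, with the Benjamini-Hochberg adjusted p beside it. The 3 mutant genotypes were each compared with the same WT libraries. The minimum was set on the mean over all 10 libraries, so a low member could pass it only through the genotype in which it was high, and such a member had to be high there. Where this holds for a called member, the call is named below as a description and supports nothing.

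Dnmt3a-/- against WT asks for the change after deletion of Dnmt3a, the DNA methyltransferase that sets new methylation marks. Per the study's text Mx1-Cre removed Dnmt3a only in part in Dnmt3a-/- mice, and fully only in leukemic double knockouts. In LSK 4 of the 31 tested members were called higher and none lower, where 0.443% of all 11952 tested genes were called, 0.209% higher and 0.234% lower. The 4 were Hist1h2bg, Hist1h2bn, Hist3h2a and Hist3h2ba, of which 3 encode H2B and 1 H2A. Hist1h2bg had 38.9, 23.3 and 36.7 FPKM against 17.0, 18.3 and 19.2 in WT. Its fold change was 0.79 on the log2 scale (SE 0.25), and the call held without any single library. Hist1h2bn was listed at 0 in all 3 WT libraries and had 1.41, 0.710 and 2.54 FPKM in Dnmt3a-/-, which the steps put at 2, 1 and 4 fragments. It reached the minimum only with these libraries, with a mean of 0.946 FPKM over the other 7, which leaves 3 calls among the members that passed without them. Hist3h2ba had 3.79, 7.62 and 13.7 FPKM against 3.29, 3.69 and 3.37, and Hist3h2a 36.0, 23.0 and 42.8 against 22.1, 23.0 and 17.4. Their fold changes were 0.93 (SE 0.40) and 0.64 (SE 0.25) on the log2 scale, and both calls were lost without WT replicate 1 or 3 and without Dnmt3a-/- replicate 3. Hist3h2a was also not called without Dnmt3a-/- replicate 1, nor Hist3h2ba without WT replicate 2 or Dnmt3a-/- replicate 2. A member was called lower without Dnmt3a-/- replicate 3, Hist1h4b at -0.83, and Hist1h4i was called higher at 0.61 without replicate 1. In limma's test no member passed at the adjusted p, which was 1 for each of the 4, and no gene of the table did.

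Not called, but without overlap with WT, were Hist1h2bc with 68.1, 83.5 and 78.9 FPKM against 49.1, 40.2 and 43.3, and Hist1h1c with 52.2, 47.1 and 57.9 against 24.5, 38.4 and 40.0. With 1 variance per genotype both were called, among 7 members, where 1.01% of all genes were. In all, 7 tested members had every Dnmt3a-/- LSK library above every WT library and none had every library below, where 4.63% and 4.98% of all tested genes did. Hist1h2bn is among the 7, and without the members that passed only through Dnmt3a-/- there were 6 of 29. An exact permutation test cannot give less than 0.1 with 3 libraries against 3, and it gave 0.1 for each of the 4 called members. The median log2 fold change was 0.05 over the 31 tested members and 0.00 over all tested genes.

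In Dnmt3a-/- MEP 2 of the 28 tested members were called, both higher, where 0.412% of 10933 genes were called, 0.201% higher and 0.21% lower. Hist1h4i had 27.3, 37.6 and 22.7 FPKM against 16.2, 20.4 and 14.2 in WT, a log2 fold change of 0.73 (SE 0.22). Hist3h2a had 22.3, 22.6 and 18.9 FPKM against 9.87, 9.80 and 14.6, a log2 fold change of 0.86 (SE 0.20). Neither gene's libraries overlapped with WT, and 3 members in all had every library above WT and none below, where 5.12% and 5.27% of all tested genes did. Without Dnmt3a-/- replicate 2 the log2 fold change of Hist1h4i was 0.54 and it was no longer called. Hist1h3c was then called lower at -1.22, which gave 1 call in each direction, where 0.338% of all genes were called. Without Dnmt3a-/- replicate 1 Hist1h4c was called higher in addition, where 1.11% of all genes were called, 22 higher and 99 lower. Without WT replicate 2, 4 members were called, Hist1h4f and Hist3h2ba in addition, where 1.02% of all genes were. The adjusted p in limma was 1 for both, and no gene passed it. Hist1h2bc, with 46.9, 39.2 and 31.8 FPKM, overlapped here with the 27.2, 26.5 and 34.8 of WT. Macrophage markers summed to 5.60 to 7.72 FPKM in Dnmt3a-/- MEP against 3.31 to 4.28 in WT, none of them called. Of 8 granulocyte markers Elane was called higher and none lower. The part of these markers in the calls was not tested.

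Bcor-/- against WT asks for the change without Bcor, a subunit of the variant PRC1.1 complex. In LSK 4 members were called higher and 2 lower of the 31 tested, 6 in all, where 13.2% of all tested genes were called, 7.2% higher and 6.03% lower. The 4 higher were the H4 genes Hist1h4b, Hist1h4i and Hist4h4 and the H2B gene Hist1h2bn. Hist1h4b had 4.24 and 3.13 FPKM against 0.686, 0.769 and 0.879 in WT, a log2 fold change of 1.39 (SE 0.41), but it reached the minimum only with the Bcor-/- libraries, with a mean of 0.846 over the other 8. Hist1h4i had 35.6 and 21.9 FPKM against 15.7, 17.5 and 14.8, a log2 fold change of 0.77 (SE 0.21). Both were above every WT library, as were 6 of the 31 tested members in all, with 3 below. Of all tested genes 27.1% were above and 27% below. Without the members that passed only through Bcor-/-, 4 of 27 were above.

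Hist4h4 had 2.52 and 1.09 FPKM in Bcor-/- LSK against 0.714, 0 and 0, which the steps put at 4 and 2 fragments against 1, 0 and 0. It too reached the minimum only with these libraries, at 0.998 FPKM over the other 8, so that 4 of the 6 calls were of members that passed without Bcor-/-. Hist1h2bn had 1.30 and 0.559 FPKM, at 2 and 1 fragments, and was listed at 0 in WT. The lower members were Hist1h1a, a linker histone gene with 0.884 and 2.28 FPKM against 5.33, 3.78 and 4.24, and the H3 gene Hist1h3a with 1.02 and 0 FPKM against 2.89, 1.30 and 2.96. Their log2 fold changes were -1.12 (SE 0.41) and -1.21 (SE 0.39). The lowest adjusted p of the 6 in limma was 0.062, that of Hist1h4i, and none passed, where 5.77% of all tested genes did. Without Bcor-/- replicate 1, the library of 2 mice, Hist1h4i, Hist1h4b, Hist4h4, Hist1h2bn and Hist1h1a were not called. Their log2 fold changes were then 0.44, 1.22, 0.80, 0.64 and -0.72. That of Hist1h3a was -1.72 there and -0.70 without replicate 2, where it was not called. The median log2 fold change of the 31 members was 0.26, and 0.19 over those that passed the minimum without Bcor-/-. It was -0.18 without replicate 1 and 0.55 without replicate 2. Without WT replicate 1 Hist1h1a and Hist1h2bn were not called, where 10.6% of all genes were. Hist4h4 and Hist1h2bn were not called without WT replicate 2, where 14% of all genes were. Nor were they without WT replicate 3, which left 4 calls, where 11.4% of all genes were called. Markers of other cells moved with this genotype, with granulocyte markers at 16125 and 23036 FPKM in sum against 3269 to 12898 in WT, early erythroid markers at 547.3 and 893.5 against 172.7 to 220.1 and stem and progenitor markers at 860.8 and 584.7 against 1142 to 1340. Their part in the calls was not tested.

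In Bcor-/- MEP no member was called in limma's test, at an unadjusted p as well as at an adjusted one, where 2.76% of all tested genes were called, 1.23% higher and 1.53% lower, and 0.064% passed at the adjusted p. Over the 28 members the log2 fold changes ran from -1.01 to 0.75 with a median of -0.03. Hist1h4i had 22.5 and 27.2 FPKM, above the 14.2 to 20.4 of WT, with a log2 fold change of 0.53 (SE 0.24) that missed the threshold of limma's test. Hist1h2bc had 21.2 and 21.9 FPKM, below the 26.5 to 34.8 of WT, with a log2 fold change of -0.43 (SE 0.64). The fits without Bcor-/- replicate 1 or 2 rest on 1 mutant library, so only log2 fold changes are given for them. They were -2.002 for Hist1h4d, -1.197 for Hist2h2bb and 1.492 for Hist2h4 without replicate 1. Without replicate 2 they were -0.844 for Hist1h1a and -1.671 for Hist1h2be. Without WT replicate 2, Hist1h4f and Hist1h4i were called higher, where 2.29% of all genes were called.

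Bcor-/-Dnmt3a-/- against WT asks for the change without both genes. In LSK 3 of 31 tested members were called higher and 1 lower, where 28.3% of all tested genes were called, 15% higher and 13.3% lower, a larger share than among the members. Hist1h2bc was the lower one, with 5.79 and 29.4 FPKM against 49.1, 40.2 and 43.3 in WT. Both libraries were below WT, by very different amounts. The log2 fold change was -1.65 (SE 0.48, adjusted p in limma 0.031), and it was -0.57 and not called without replicate 1 of the double knockout and -2.73 without replicate 2. Without WT replicate 2, 6 members were called, where 27.8% of all genes were.

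Hist1h4i had 23.6 and 30.0 FPKM in double knockout LSK against 15.7, 17.5 and 14.8, a log2 fold change of 0.70 (SE 0.21, adjusted p in limma 0.0356). It was not called without double knockout replicate 2 or with 1 variance per genotype, which left 2 of the 4 calls, where 21% of all genes were called. Hist4h4 had 3.82 and 0.837 FPKM, at 6 and 1 fragments against 1, 0 and 0 in WT, with an adjusted p of 0.0607 in limma, and was not called without double knockout replicate 1 or without WT replicate 2 or 3. Hist1h2bn had 1.31 and 3.45 FPKM, at 2 and 4 fragments, against WT libraries listed at 0, with an adjusted p of 0.0125 in limma. Both Hist4h4 and Hist1h2bn reached the minimum only with the double knockout libraries, with means of 0.866 and 0.816 FPKM over the other 8, so their p-values carry no weight. At the adjusted p 3 members passed, Hist1h2bn among them, where 23.7% of all tested genes did, and Hist1h2bc and Hist1h4i were the 2 calls that do not rest on that filter. Without overlap, 5 members were above and 3 below WT, where 25.5% and 24.1% of all tested genes were, and 3 were above without Hist1h2bn and Hist4h4. The median log2 fold change of the members was 0.33 against 0.02 over all tested genes, and 0.26 over the members that passed the minimum without the double knockout. It was 0.02 without double knockout replicate 1 and 0.54 without replicate 2.

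None of the linker histones of double knockout LSK was called with all libraries. The fits without a double knockout library rest on 1 such library, so only log2 fold changes are given for them here. Hist1h1c had 16.6 FPKM in 1 library and 108 in the other, below and above every other LSK library. The log2 fold change was 0.34 with an SE of 0.62. It was 1.66 without double knockout replicate 1 and -0.98 without replicate 2, so its direction rests on which library is kept. The log2 fold change of Hist1h1a was 0.78 without double knockout replicate 2, and Hist1h1e was called higher at 1.27 without WT replicate 2. Hist1h1d had 3.09 and 2.96 FPKM against 3.48, 5.38 and 3.22, Hist1h1b 7.90 and 2.52 against 3.52 to 8.02, Hist1h1a 8.28 and 2.34 against 5.33, 3.78 and 4.24, and Hist1h1e 6.11 and 5.14 against 1.88, 6.04 and 1.59. Only Hist1h1d had both libraries on 1 side of the WT range, below it, and Hist1h1a and Hist1h1c had 1 library on each side.

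In double knockout MEP 8 of 28 tested members were called higher and none lower, where 30.9% of all tested genes were called, 18.5% higher and 12.4% lower. With 1 variance per genotype in limma in place of a shared one, only Hist2h2be of the 8 was still called, where 18.1% of all genes were. The 8 were the linker histone gene Hist1h1b, the H2B genes Hist1h2bb, Hist2h2bb, Hist2h2be and Hist3h2ba, and the H4 genes Hist1h4b, Hist1h4i and Hist2h4. Hist3h2ba had 9.75 and 26.4 FPKM against 0.715, 6.91 and 2.57 in WT, a log2 fold change of 2.24 (SE 0.63, adjusted p in limma 0.0266). Hist2h2bb had 6.06 and 11.1 FPKM against 2.58, 2.23 and 1.85, a log2 fold change of 1.52 (SE 0.44, adjusted p in limma 0.0285). Its annotation overlaps 2 unnamed gene models that share its whole sequence, so its reads are uncertain. Hist2h2be had 6.72 and 17.1 FPKM against 3.87, 5.09 and 4.07, a log2 fold change of 1.15 (SE 0.32, adjusted p in limma 0.0241). In each of these 3 genes the second library was the higher one.

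Hist1h4i had 27.4 and 38.0 FPKM in double knockout MEP against 16.2, 20.4 and 14.2, a log2 fold change of 0.91 (SE 0.24, adjusted p in limma 0.0218). Hist1h1b had 5.43 and 5.71 FPKM against 2.99, 2.07 and 2.61, a log2 fold change of 0.89 (SE 0.21, adjusted p in limma 0.0143), the closest pair among the 8. Hist2h4 was listed at 0 in all 3 WT libraries and had 4.14 and 1.76 FPKM, at 5 and 2 fragments, with an adjusted p of 0.0124 in limma. Hist1h2bb had 3.89 and 8.82 FPKM against 3.26, 2.70 and 1.87, and Hist1h4b 3.18 and 2.69 against 0, 2.06 and 1.07, with adjusted p of 0.0606 and 0.104 in limma. Hist2h4 and Hist1h4b reached the minimum only with the double knockout libraries, with means of 0.527 and 0.897 FPKM over the other 8, so their p-values carry no weight and 6 calls remain among the members that passed without them. With each library left out in turn, the log2 fold change lay between 0.68 and 1.13 for Hist1h4i and between 0.79 and 0.98 for Hist1h1b. For Hist2h4 it lay between 1.47 and 2.36. Hist3h2ba, Hist2h2bb, Hist2h2be, Hist1h2bb and Hist1h4b were not called without the second double knockout library. Hist1h2bb was also not called without WT replicate 3, nor Hist1h4b without WT replicate 1 or 3 or the first double knockout library.

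At the adjusted p in limma 6 of the 28 members passed, where 25.2% of all tested genes did, and 5 of them passed the minimum without the double knockout. Of the 28 members 12 had both double knockout MEP libraries above WT and none had both below, where 24.6% and 25.8% of all tested genes did. Of the 12, Hist1h2bn, Hist1h3i, Hist1h4b and Hist2h4 reached the minimum only with these libraries, which leaves 8 of 23. The median log2 fold change of the members was 0.64 against 0.02 over all tested genes, and 0.62 without the members listed at 0 in a whole genotype. Without the first double knockout library the member median was 1.11, and without the second it was 0.39. Quantile normalization moved the median of all genes to -0.17 and that of the members to 0.39, and it left 4 calls, Hist1h4i, Hist2h2bb, Hist2h4 and Hist3h2ba. It also turned the split over all genes from 2019 higher and 1357 lower to 1461 higher and 2277 lower, and centring each library on its median gave 1565 and 2142 with 6 members called, all higher.

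**Figure D4:**
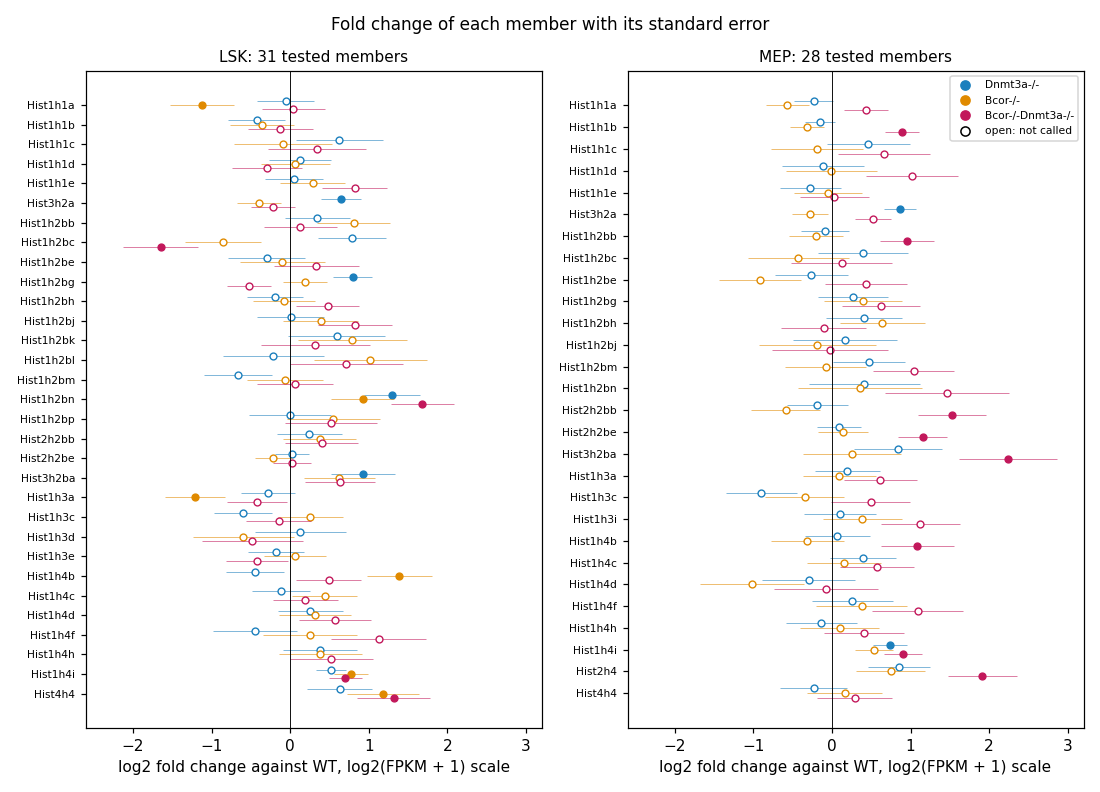
Log2 fold change against WT on the log2(FPKM + 1) scale for each tested member, with bars of 1 standard error and filled points for called genes. The points of Hist1h2bn in LSK and Hist2h4 in MEP are fitted values against WT libraries listed at 0, and those of Hist1h4b and Hist4h4 in LSK and Hist1h4b in MEP also rest in part on the filter. In double knockout MEP 8 of 28 points are filled, where 30.9% of all tested genes were called.

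The double knockout libraries of 1 genotype differed from each other in opposite ways in the 2 cell types. In MEP 21 of the 28 tested members, 75%, were higher in the second library than in the first, where 48.2% of all tested genes were, with a median difference of 0.72 on the log2 scale over the members and -0.03 over all genes. In LSK 10 of 31 members were higher in the second library, 32.3%, where 50.9% of all tested genes were, with a median of -0.25 over the members and 0.01 over all genes. The sum in LSK was nevertheless higher in the second library, with Hist1h1c and Hist1h2bc higher there. Hist1h2bc had 11.5 and 86.3 FPKM in double knockout MEP and Hist1h1c 16.1 and 78.5, in both cases 1 library below and 1 above the WT range. The summed maturing erythroid markers were 23665 FPKM in the second library and 6076 in the first in LSK, and 94995 and 3964 in MEP, while macrophage markers summed to 57.4 and 1431 FPKM in LSK and to 17.0 and 749.5 in MEP in the same order. S phase genes summed to 1300 FPKM in the second library and 2451 in the first in LSK, against 1813 to 1984 in WT, and to 3832 and 2579 in MEP, against 2947 to 3788, and so were higher in the library with more of the members higher. The part of these groups in the difference was not tested.

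**Figure D5:**
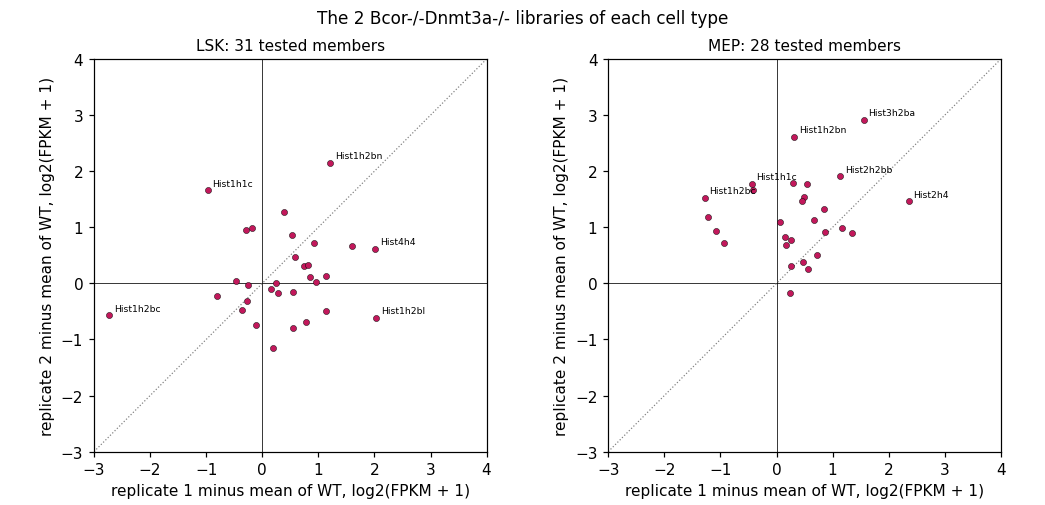
Difference from the mean of WT on the log2(FPKM + 1) scale in the first (horizontal) and second (vertical) double knockout library, for each tested member of LSK and MEP, with a dotted line where both are equal. In MEP 21 of 28 points lie above the line, and in LSK 21 of 31 lie below it.

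Hist1h4i was higher in each of the 7 mutant libraries than in each of the 3 WT libraries in both cell types. In LSK the 7 ranged upward from 20.5 FPKM in 1 Dnmt3a-/- library, against 17.5 in the highest WT library, and in MEP from 22.5 in 1 Bcor-/- library, against 20.4. Hist1h2bn, which passed the minimum only through mutant libraries, and Hist3h2ba did the same in LSK, so that 3 of 31 tested members had all mutant libraries above WT there and 1 of 28 in MEP, where 0.494% and 0.457% of all tested genes did. No member had all mutant libraries below WT, where 0.36% and 0.668% did. Of the 50-base words in Hist1h4i, 28.9% also occur in other genes, most often in Hist1h4n and Hist1h4m. Hist4h4, in contrast, had 0.777, 1.61 and 0.559 FPKM in WT MEP and 1.32 and 1.40 in double knockout MEP, within the WT range, with 1.71 in 1 Dnmt3a-/- library and 0 in another.

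The difference between LSK and MEP in the effect of a genotype was tested within mice over the 26 members past the minimum in both. For the double knockout 5 members differed, all with a lower effect in LSK, where 28% of 10773 genes differed. Hist1h2bc had a log2 fold change of -1.65 in LSK and 0.13 in MEP, a difference of -1.77 (SE 0.27, adjusted p in limma 0.00607). Hist2h2bb had 0.40 and 1.52, a difference of -1.12 (SE 0.25, adjusted p in limma 0.0178). Hist1h1d, Hist1h2bg and Hist2h2be differed by -1.31, -1.14 and -1.13 with adjusted p of 0.0984, 0.108 and 0.062 in limma, and none of the 3 was called without double knockout replicate 2. Hist1h1d was also not called without WT replicate 2 or 3, nor Hist1h2bg without WT replicate 1, 2 or 3. The median difference of the members was -0.49 with all mice, -0.89 without double knockout replicate 1 and -0.22 without replicate 2. Over all genes the split was 1220 higher and 1796 lower in LSK, and 1572 and 1492 after quantile normalization. For Bcor-/- 2 members differed, where 10.8% of all genes did. Hist1h4b had 1.39 in LSK and -0.31 in MEP and Hist2h2bb 0.38 and -0.59, with adjusted p of 0.165 and 0.115 in limma, and Hist1h4b, which reached the minimum in LSK only with the Bcor-/- libraries, was not called without Bcor-/- replicate 1. Without WT replicate 2, 4 members differed, where 9.36% of all genes did. For Dnmt3a-/- no member differed in limma's test, at the unadjusted or the adjusted p, where 0.873% of all genes did at the unadjusted one. Without Dnmt3a-/- replicate 1 there were 3, without Dnmt3a-/- replicate 2 and without WT replicate 2 there were 2 each, where 1.54%, 0.687% and 1.8% of all genes did.

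The genes that make, end and package histone mRNA and protein were counted in the same comparisons. Of all tested genes 28.3% were called in double knockout LSK and 30.9% in double knockout MEP, and the only one of the lists below with a larger share called was that for histone gene transcription in LSK. Of 20 measured genes for 3' end processing and decay of histone mRNA, SLBP and the U7 snRNP among their products, none was called in LSK or MEP of either single knockout. Of all tested genes 13.2% were called in Bcor-/- LSK, 2.76% in Bcor-/- MEP, 0.443% in Dnmt3a-/- LSK and 0.412% in Dnmt3a-/- MEP. In double knockout LSK 1 of 20 was called, Ncbp2, a cap-binding subunit, which was lower, and in double knockout MEP 4 of 19 were, the uridyltransferase gene Zcchc11 higher and Cpsf1, Ncbp2 and Sympk lower. Slbp had 108 and 75.4 FPKM in double knockout LSK against 65.6, 64.7 and 70.4 in WT, without overlap and not called, and 121 and 209 in double knockout MEP against 113, 138 and 119, with overlap. Of 12 genes for histone gene transcription 5 were called in double knockout LSK, all higher, where 15% of all tested genes were called higher, and 2 in double knockout MEP, E2f2 and Pou2f1, both higher, where 18.5% were. In Bcor-/- LSK 1 of the 12 was called, Ccne1, a cyclin E gene, higher, where 7.2% of all tested genes were called higher. E2f2, an E2F factor of the cell cycle, had 60.4 and 90.1 FPKM against 9.44, 10.7 and 9.64 in LSK. Npat, the coactivator of histone gene transcription, was not called in either.

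Of 22 S phase genes 2 were called in double knockout LSK, Rrm2 higher and Pola1 lower, and 1 in double knockout MEP, Gins2, lower. None of the 22 was called in either single knockout, where 13.2% of all tested genes were in Bcor-/- LSK and 2.76% in Bcor-/- MEP. In Dnmt3a-/- LSK and MEP 0.443% and 0.412% were. The median log2 fold change of the 22 was between -0.15 and 0.16 in the 6 comparisons. Of 18 histone chaperones 3 were called in double knockout LSK, Asf1b higher and Nap1l1 and Rbbp7 lower, and 1 in double knockout MEP, Tonsl, lower. The replication-independent histone genes, whose mRNA ends in a usual poly-A tail, summed to 2113 to 2467 FPKM in WT LSK and to 1239 to 1240 in WT MEP, above the member sums. In Dnmt3a-/- they summed to 2524 to 2593 in LSK and 1291 to 1427 in MEP, above every WT library in both. In Bcor-/- they were below WT in both, with 1862 to 1987 and 1162 to 1177, and in the double knockout below it in LSK, with 1682 and 1412, and above it in MEP, with 1489 and 1977. In double knockout LSK 3 of 11 were called, H1fx, H2afy and H2afy2, all lower. In double knockout MEP 2 of 10 were, H3f3a higher with 204 and 489 FPKM against 94.8, 113 and 109, and H1fx lower with 1.40 and 0.210 against 4.87, 2.89 and 4.63. In Bcor-/- LSK 4 of 11 were called, a larger share than the 13.2% of all tested genes, with Cenpa, the centromeric H3 variant gene, and H2afj higher and H1fx and H2afy2 lower, and none was called in Dnmt3a-/- LSK or MEP.

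RNAs without a poly-A tail, which such libraries should lack, were measured as a gauge of tailless RNA. Of 115 listed small nuclear, nucleolar and other such RNAs 27 passed the minimum in LSK and 20 in MEP. In LSK they summed to 337.5, 564.9 and 572.2 FPKM in WT, to 2692, 623.5 and 1431 in Dnmt3a-/-, to 322.3 and 202.5 in Bcor-/- and to 244.1 and 1783 in the double knockout. The Dnmt3a-/- libraries were above WT, both Bcor-/- libraries were below it, and the double knockout had 1 library on each side, as for its member sums of 183.2 and 282.3 FPKM. In MEP they summed to 243.6, 264.9 and 1290 FPKM in WT, to 1630, 1423 and 137.6 in Dnmt3a-/-, to 346.4 and 479.0 in Bcor-/- and to 505.3 and 273.6 in the double knockout. The 2 Dnmt3a-/- MEP libraries with high values were those with the high member sums of 208.7 and 217.6 FPKM, and the third, with a member sum of 147.4, had the lowest tailless sum of all 10 MEP libraries. In double knockout MEP the second library, with the highest member sum of 417.7 FPKM, had the lower tailless sum, and WT replicate 3 had 1290 at a member sum of 145.6. In Dnmt3a-/- LSK 2 of the 27 tailless RNAs were called higher and 1 lower, where 0.443% of all tested genes were called, and in Dnmt3a-/- MEP 2 of 20 in each direction, where 0.412% were. Like that of the members, the share called was above that of all genes in both. In Bcor-/- and double knockout LSK 2 of 27 were called higher and none lower, where 13.2% and 28.3% of all genes were called, and none was called in Bcor-/- or double knockout MEP. Their part in the levels of the members was not tested.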

How the data were processed

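Poly-A RNA of LSK and MEP cells was sequenced by the authors, and the values they deposited are FPKM per gene, 1 table for each cell type with 10 libraries. Per the submitters' processing notes the tools were STAR 2.5.1b, SAMtools 1.9 and Cufflinks 2.2.1 with mm9, and how fragments that match several genes were shared out is not given in the sources used here. Total counts were not used here. Relative depth came from the steps of low values, and intervals from counts were therefore not given.

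Libraries were grouped by the genotype in their labels, which name the same mice in both cell types. The members and gene lists were chosen with earlier results of these data known. Values were tested as log2(FPKM + 1) with limma 3.58.1 in R 4.3.3, with 1 mean per genotype and a mean-variance trend, over every gene that averaged 1 FPKM or more. The call (p under 0.05 before adjustment, fold above 1.5) follows the thresholds of the study's methods, which name no test. Adjusted p are Benjamini-Hochberg over all tested genes. The difference between cell types was tested on the value in LSK minus that in MEP of each mouse. The test was checked on simulated data whose spread came from WT and the single knockouts. Over all tested genes the median SD between double knockout libraries was 0.30 against 0.13 in WT in LSK. In MEP it was 0.35 against 0.16, so the check does not cover the spread of the double knockout. Exact permutation tests were two-sided. The genes named were the linker histones, the 10 highest members, those with the largest called changes, Hist1h4i, Hist4h4 and those that differed between cell types. The paragraph on members above WT in every mutant library was added after values were seen, as were single examples of other genes. Stem-loops and poly-A signals were searched in GENCODE transcripts on GRCm38. Sums over members were described and not tested. Alternatives were the pseudocount, the filter, the scaling, the libraries in the fit, the replicate number as a block, the variance model, the thresholds and leaving out each library. Figures were drawn with matplotlib 3.10.9.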

Additional observations from a re-analysis of the deposited data

Results flagged for a closer look

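For 7 tests of single members, the effect of a genotype differed between LSK and MEP by the test of the difference itself, computed within mice on the log2(FPKM + 1) scale. In Bcor-/-Dnmt3a-/- against WT the effect in LSK minus that in MEP was -1.77 for Hist1h2bc, -1.12 for Hist2h2bb, -1.31 for Hist1h1d, -1.14 for Hist1h2bg and -1.13 for Hist2h2be. The first 2 passed at the adjusted p in limma and were called under each of the 14 alternatives tried. Where an alternative left 1 double knockout mouse, the spread behind the call was that of the other genotypes. Leaving out 1 mouse at a time, with its LSK and its MEP library, gave -2.10 to -1.45 for Hist1h2bc and -1.33 to -0.92 for Hist2h2bb. In Bcor-/- against WT the difference was 1.70 for Hist1h4b and 0.97 for Hist2h2bb, and neither passed at the adjusted p. Hist1h4b reached the minimum in LSK only with the Bcor-/- libraries. The groups held 2 or 3 libraries, too few to test single libraries as outliers.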

How the results depend on the processing

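None of the called members changed sign under the alternatives. Among those not called, Hist1h1c in double knockout LSK (0.34) had log2 fold changes of 1.66 without replicate 1 of the double knockout and -0.98 without replicate 2. Hist1h2bc in double knockout MEP (0.13) had 1.53 and -1.28 in the same order. The member median of Bcor-/- LSK turned from 0.26 to -0.18 without Bcor-/- replicate 1. The number of called members moved as follows, with the share of all tested genes called under the same setting in brackets. For the double knockout the shares stand in the sentences after the counts. Shares without a double knockout library are left out, since such a fit rests on 1 library of that genotype. Where no cause stands beside a value the cause was not tested. In double knockout LSK 4 calls became 7 with no filter on low values, 2 at a mean of at least 5 FPKM, 2 with 1 variance per genotype and 3 to 9 without 1 library. Of all tested genes 28.3% were called there in the main fit, 22.3% with no filter and 25.1% at 5 FPKM. With 1 variance per genotype 21% were called, and without 1 WT library 25.9% to 27.8%. In Bcor-/- LSK 6 became 0 at the adjusted p (5.77%) and 1 at a mean of at least 5 FPKM (12.3%). Without 1 WT library there were 4 to 5 (10.6% to 14%). In Dnmt3a-/- LSK 4 became 0 at the adjusted p (0%) and 1 at a fold change above 2 (0.159%). They became 2 at a mean of at least 5 FPKM (0.347%) and 2 to 4 without 1 library (0.293% to 0.628%). There were 7 with only the 2 genotypes compared (0.879%) and 7 with 1 variance per genotype (1.01%). In double knockout MEP 8 became 5 at a fold change above 2, 3 at a mean of at least 5 FPKM, 4 with quantile normalization, 1 with 1 variance per genotype, which was Hist2h2be, and 4 to 13 without 1 library. Of all tested genes 30.9% were called in double knockout MEP in the main fit, 15.8% at a fold change above 2 and 27.9% at 5 FPKM. With quantile normalization 34.2% were called, with 1 variance per genotype 18.1%, and without 1 WT library 25.8% to 30.6%. In Bcor-/- MEP 0 became 1 with no filter (2.1%) and 2 without WT replicate 2 (2.29%). In Dnmt3a-/- MEP 2 became 0 at the adjusted p (0%) and 0 at a fold change above 2 (0.128%). They became 4 with no filter (0.315%) and 4 with only the 2 genotypes compared (0.814%). Without 1 library there were 2 to 4 (0.311% to 1.11%). For the difference between LSK and MEP, the double knockout's 5 became 2 at the adjusted p, 2 with quantile normalization, 2 with 1 variance per genotype and 4 to 10 without 1 library. Of all genes 28% differed for the double knockout in the main fit, 18.6% at the adjusted p and 28.4% with quantile normalization. With 1 variance per genotype 13.2% differed, and without 1 WT mouse 22.9% to 29.3%. The 2 members that differed for Bcor-/- became 0 at the adjusted p (0.251%) and 1 at a fold change above 2 (3.64%). They became 4 with only the 2 genotypes (14.2%) and 4 with 1 variance per genotype (14.9%). Without 1 WT mouse there were 2 to 4 (8.51% to 11.8%). The 0 of Dnmt3a-/- became 1 with a pseudocount of 0.1 (1.62%) and 0 to 3 without 1 mouse (0.687% to 1.8%). Fewer genes are tested at 5 FPKM by construction, and a lone library left in a genotype is assumed to vary like the others.

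The replicate numbers were not taken to pair mice of different genotypes. Same-numbered libraries of WT and Dnmt3a-/- had correlations of their deviations between -0.04 and 0.06 in LSK, and between -0.19 and 0.34 in MEP. Those of the mutant genotypes, at most 2 pairs each, lay between -0.0512 and 0.0871 in LSK and between 0.12 and 0.21 in MEP. With the replicate block, Dnmt3a-/- LSK had 2 calls and Bcor-/- MEP 1, where 0.427% and 2.88% of all genes were called. The difference between cell types then had 4 in Bcor-/- and 1 in Dnmt3a-/-, where 11.8% and 1% of all genes differed.

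The log2 ratios of type sums to WT moved, several of them across 0, mainly without the highest member of the type. In LSK they became -0.16 for H1 and -0.0891 for H4 in Dnmt3a-/-, 0.88 for H2a and 0.40 for H2b in Bcor-/-, and 0.54 for H2a and 0.27 for H2b in the double knockout. In MEP they became -0.19 for H1 and 0.24 for H4 in Dnmt3a-/-, 0.85 for H2a, 0.0631 for H2b and 0.16 for H4 in Bcor-/-, and 1.74 for H2a in the double knockout. With quantile normalization they were 0.64 for H4 in double knockout LSK, and 0.43 for H2a and -0.073 for H3 in double knockout MEP.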
